A study of Rattus norvegicus with 3 samples.

Results

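The proteins described here are those of the chromatin-enriched fraction of Rat1 cells, an established line of rat fibroblasts, compared between cells that carry Myc (labelled Rat1_Myc) and cells that carry the vector (Rat1_vector). All entries of the peptide table of that fraction were taken, 1 row per protein entry, which gave 400 of the 1053 distinct entries in the series. The soluble fraction has 620 entries and the mitochondrial one 207, and some entries are in more than 1 fraction. Both lines had been kept without serum for 12 h, and the labels do not say which promoter drives Myc or whether each line is 1 clone. From each line 2.5 mg of chromatin-enriched protein was tagged on cysteine with an isotope-coded affinity tag (ICAT), vector protein with the light reagent and Myc protein with the heavy one, and the pair was digested and measured as 1 mixture. Each protein thus has a ratio of Myc over vector. There was no second mixture and no swap of the tags, so every comparison below describes this mixture, a ± is the deposited SD of a ratio inside it, and an effect of the tag and an effect of Myc cannot be told apart.

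Myc is a transcription factor that, with its partner Max, binds promoters of genes for ribosome production, RNA processing, metabolism and the mitochondrion. Fibroblasts with high Myc that lose serum factors are prone to apoptosis. A chromatin-enriched pellet holds histones and the proteins that read, modify and transcribe DNA, and it usually also holds what sediments with nuclei, namely ribonucleoprotein particles, the nuclear lamina, ribosomes, membranes, cytoskeleton and extracellular matrix.

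The table held 2386 peptide lines, and 364 of the 400 entries had a protein ratio, 260 of them (71.4%) from a single peptide. Of the lines 2098 carried a ratio and 288 a code for undetected peaks. A line count given below for an entry includes its coded lines. Ranges and medians of lines, and line counts given for a single peptide, cover lines with a ratio only. The median deposited SD was 13.2% of the ratio. The fraction held the nuclear markers lamin A/C, lamin B1, histone H3, HMG1, both forms of DNA topoisomerase II, hnRNP U and poly(ADP-ribose) polymerase 1, as 9 entries. It held 7 entries of fibroblast markers, which are vimentin, fibronectin and 3 collagen chains, and 0 entries of the keratin and epithelial list or of the blood and serum list. It also held 11 entries of mitochondrial markers and 4 of cytosol markers, so that it was not pure. That it was enriched for chromatin is per the label and was not tested here. By the rule given below, the nuclear markers had 4 higher and 0 lower entries (median ratio 1.39), the mitochondrial markers 4 and 0 (1.503), the cytosol markers 1 and 0 (1.34) and the fibroblast markers 0 and 1 (1.05). Proteins are called here by a reading of their database entry names, mostly human (202 entries) or mouse (62) and in 0 cases rat, and 151 entries have no name.

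Ratios ran from 0.115 to 6.52 with a median of 1.24, and 250 entries (68.7%) lay above 1. An entry was counted as higher when its ratio was at least 1.5, and as lower when it was at most 1 over 1.5, in both cases only if its log ratio exceeded 2 deposited errors. By this rule 74 entries were higher (20.3%) and 27 lower (7.42%). Centring of the ratios by the authors is not given in the sources used here, so the rule was also applied to ratios divided by the median of the fraction. This left 34 entries higher (9.34%) and made 48 lower (13.2%). The 34 were all among the 74, and all 27 lower entries stayed lower. Division by a median above 1 can only lower a ratio, so both overlaps follow from the rule itself. In what follows a call "relative to the median" refers to this second reading, and 20.3%, 7.42%, 9.34% and 13.2% are the shares against which each group of proteins is read.

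**Figure D1:**
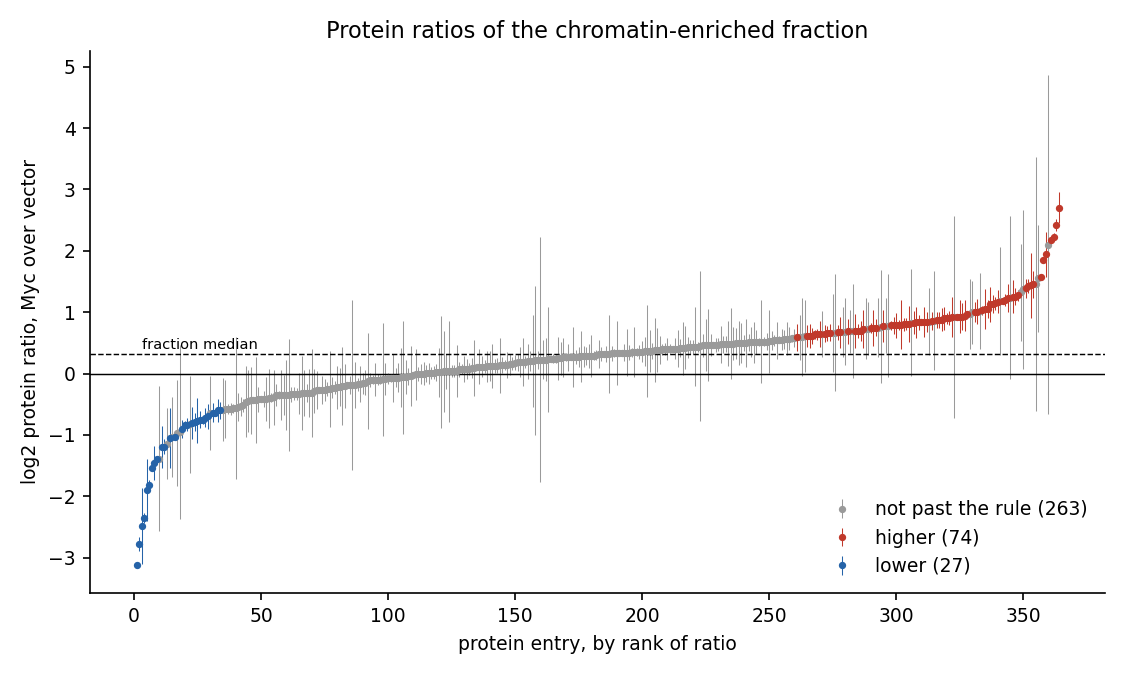
Log2 protein ratio of Myc over vector (vertical axis) of the 364 entries in order of their ratio (horizontal axis), with bars of 1 deposited error, red where an entry was higher, blue where it was lower and grey otherwise. The dashed line is the fraction median of 0.31, and the grey points between the coloured ends include many with bars that reach across 0.

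The proteins that remodel and read chromatin held 7 higher entries and 1 lower entry among 26 with a ratio (26.9% and 3.85%), at a median ratio of 1.36 against 1.24 over all entries. Relative to the median 3 were higher and 1 was lower (11.5% and 3.85%), against 9.34% and 13.2% over all entries. In that reading the share of higher entries was thus near the share over all entries. The highest was RbAp46 (RBBP7), a histone-binding subunit shared by deacetylase and remodelling complexes, at 2.34 ± 0.367 (RBB7_HUMAN, 2 peptides by the authors' count, 29 lines). The lines hold 3 distinct peptides with median ratios of 1.45, 2.47 and 2.89 in order of their length of 15, 29 and 31 residues, so that each lay above the fraction median. RbAp48 (RBBP4), its close relative, stood at 1.05 ± 0.117 (RBB4_HUMAN, 4 peptides) with peptide medians between 0.685 and 1.34. The peptide medians of both proteins do not overlap. The 10-residue RBBP4 peptide at 1.34 lies wholly inside the 29-residue RBBP7 peptide at 2.47, so it does not tell the proteins apart.

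Both proteins belong to the NuRD complex, which couples a remodelling ATPase to histone deacetylation, and the other NuRD subunits in the table also stood at different levels. CHD4, an ATPase of the complex, was higher at 1.59 ± 0.142 (CHD4_HUMAN, 4 peptides, 24 lines between 1.12 and 1.97), while CHD3, the alternative ATPase, stood at 0.969 ± 0.091 (CHD3_HUMAN, 3 lines). MTA1, a scaffold subunit, stood at 1.39 ± 0.134 on a single line (MTA1_MOUSE). RBBP7 alone of these 5 was also higher relative to the median.

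The HP1 proteins, which bind methylated histone H3 in heterochromatin, gave HP1-alpha at 1.83 ± 0.157 (CBX5_HUMAN, higher) and HP1-beta at 1.15 ± 0.077 (CBX1_HUMAN), each on 1 peptide. HP1-gamma (CBX3_HUMAN) had a coded ratio of 0, which the authors' legend lists among the codes for undetected peaks without saying what each stands for. TIF1-beta (TRIM28), a corepressor that recruits HP1, stood at 1.03 ± 0.07 over 19 lines (TF1B_HUMAN). The histone H3 methyltransferase G9a, outside the list by its symbol, was higher at 1.73 ± 0.096 (BAT8_HUMAN, 3 lines, all identified in the heavy form). The maintenance DNA methyltransferase DNMT1 stood at 1.255 ± 0.108 on 11 lines (DNM1_MOUSE) and at 0.802 ± 0.22 on 1 line of a different entry (DNM1_HUMAN). Among these silencing proteins 2 passed the rule as deposited, HP1-alpha and G9a, and 0 relative to the median.

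Of the DNA-handling enzymes, DNA topoisomerase II alpha was higher at 2.05 ± 0.105, also relative to the median (TP2A_HUMAN). It decatenates replicated DNA and is abundant in dividing cells, and was read from 1 line with an identification probability of 0.757. Its paralogue topoisomerase II beta stood at 1.39 ± 0.289 over 4 lines from 1.04 to 2.15 (TP2B_HUMAN). Poly(ADP-ribose) polymerase 1, which marks DNA breaks, was higher at 1.62 ± 0.128 (PPOL_HUMAN), and DNA ligase III, which seals them, stood at 0.956 ± 0.153 (DNL3_HUMAN). The AAA ATPase RuvB-like 1, a subunit of several remodelling complexes, was higher at 1.83 ± 0.165 (RUV1_HUMAN), and its hexamer partner RuvB-like 2 stood at 1.42 ± 0.38 on 1 line (RUV2_HUMAN). HMG1 (HMGB1), which bends DNA, was higher at 1.92 ± 0.337 with 7 lines between 1.49 and 3.08 (HMG1_HUMAN), also relative to the median.

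CTCF, which bounds chromatin loops, stood at 1.45 ± 0.302 with 4 peptides between 1.15 and 2.51 (CTCF_HUMAN), and the cohesin subunit RAD21 at 1.38 ± 0.038 on 1 line (RA21_HUMAN). SSRP1, a subunit of the histone chaperone FACT, stood at 1.35 ± 0.076 (SSRP_HUMAN). Histone H3 gave 1.29 ± 0.119 (H31_HUMAN, 9 lines) and 0.957 ± 0.321 (H32_BOVIN, 19 lines), 2 entries with overlapping peptides. The sole lower entry of the group was the BRG1-associated factor 53A, an actin-related subunit of remodelling complexes, at 0.536 ± 0.053 from 1 line with a probability of 0.897 (B53A_HUMAN).

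The lamina, a filament mesh under the nuclear envelope, and the nuclear pore gave 0 higher and 0 lower entries of 3. Lamin B1 stood at 1.06 ± 0.073 (LAM1_HUMAN, 32 lines), lamin A/C at 0.865 ± 0.38 (LAMA_HUMAN, 44 lines between 0.436 and 2.16), and the nucleoporin RanBP2 at 1.13 ± 0.112 (RBP2_HUMAN, 2 lines). All 3 lay below the fraction median. As deposited, lamin B1 was thus close to 1 and relative to the median it was below it, and which reading holds depends on a centring that the sources used here do not give.

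Of transcription factors and subunits of RNA polymerase II, 2 had a ratio in the list. NFI-C, a promoter-binding factor, was higher at 2.01 ± 0.283 (NFIC_HUMAN, 2 peptides at 1.57 and 2.07), and the second-largest polymerase II subunit stood at 1.07 ± 0.033 (RPB2_HUMAN, 1 line). The nuclear receptor coactivator 5 was higher at 1.90 ± 0.05 on 1 line (NCO5_HUMAN). Other factors outside the list had wide errors, such as ATF2, which binds cyclic AMP response elements, at 0.936 ± 0.601, and the nuclear receptor COUP-TF1 at 0.959 ± 0.613. The medians of their peptides lay above 1, at 1.72 and 1.37, over 3 lines each.

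Proteins that package and splice RNA had 7 higher and 0 lower entries of 21 (33.3% and 0%), at a median of 1.47, and 4 higher and 1 lower relative to the median (19.0% and 4.76%). The 4 higher ones were U2AF's large and small subunits, which recognise the 3′ splice site, the splicing factor SRp40 and hnRNP R. SRp40 (SRSF5), an SR protein that promotes exon recognition, stood at 1.86 ± 0.239 with 6 lines between 1.504 and 2.51 (SFR5_HUMAN). The hnRNP R entry that passed stood at 2.38 ± 0.446 (1 peptide, probability 0.856), and the other hnRNP R entry stood at 1.82 ± 1.01 with lines from 0.267 to 1.90 (ROR_HUMAN). Both entries read the same stretch. An 11-residue peptide of ROR_HUMAN gave 0.428 over 5 lines, and a 13-residue peptide that contains it gave 1.90 over 2. The 17-residue peptide of the entry that passed also contains it and gave 2.37 over 2 lines.

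The core particle and the hnRNP shell were not uniform. Sm D3, a subunit of the ring that carries the spliceosomal RNAs, was higher at 1.81 ± 0.185 over 8 lines (SMD3_HUMAN), while Sm F of the same ring stood at 1.32 ± 0.091 over 11 lines (RUXF_HUMAN). Among hnRNPs with more than 1 peptide, hnRNP U (1.89 ± 0.428) and hnRNP F (1.68 ± 0.161) were higher, and hnRNP H (1.47 ± 0.175), hnRNP M (1.45 ± 0.155, 28 lines) and hnRNP A0 (1.03 ± 0.299) did not pass. With the median of its peptide lines in place of the protein ratio (1.39), hnRNP U did not pass either. Polypyrimidine tract-binding protein, a splicing repressor, stood at 1.47 ± 0.06 on 15 lines, 8 of them with a ratio (PTB_MOUSE), just short of the limit of 1.5. NONO and SFPQ, which act as a dimer in paraspeckles, gave 0.823 ± 0.207 over 16 lines (NR54_HUMAN) and 1.78 ± 1.08 on 1 line (SFPQ_HUMAN). The protein ratio of NONO lay below 1, whereas both of its peptides with ratios had medians above 1, at 1.38 over 10 lines and 1.06 over 5, and the median of its lines was 1.09. The lowest entry was CUG-binding protein 1, a regulator of alternative splicing and of messenger RNA decay, at 0.383 ± 0.314 (CUG1_HUMAN), which its error kept from passing. A GTPase of the U5 particle (U5S1_HUMAN, 0.739 ± 0.017, 1 line) was the entry that was lower relative to the median.

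Of 7 RNA helicase entries 3 were higher and 0 lower, and all 7 lay above the fraction median, at a median of 1.72. These peptides were long, with a median of 23.5 residues against 17 over all entries, and ratios rose with peptide length in this fraction, as given further on. The 3 were the nucleolar helicase II (2.99 ± 0.095), which passed relative to the median as well, RNA helicase A (1.72 ± 0.242) and p72 (1.72 ± 0.087). With the median of its lines (1.405) p72 did not pass. For p68, the paralogue of p72, the ratio was as large at 1.72 but the error was ± 0.998. For UAP56 (DDX39B), which loads export factors on messenger RNA, it was 1.45 ± 0.083 (HE47_HUMAN). The lowest was an entry of DDX3, at 1.33 ± 0.4 (DDX3_MOUSE), and its other entry stood at 1.70 ± 1.08 (DDX3_HUMAN).

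The box C/D core of the nucleolus, which methylates ribosomal RNA, was measured through 3 proteins. Fibrillarin, its methyltransferase, was higher at 1.78 ± 0.298 over 7 lines between 1.51 and 2.40 (FBRL_HUMAN), NOP58 was higher at 1.59 ± 0.156 over 8 lines (NOP5_HUMAN), and NOP56 stood at 1.66 ± 0.57 over 7 lines (NO56_MOUSE). The ranges of 1 deposited SD around these values overlap, and with the nucleolar helicase II all 4 nucleolar entries lay above the fraction median. NEP1 (EMG1), a ribosome assembly factor outside the list by its symbol, stood at 1.38 ± 0.17.

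Of 21 cytosolic ribosomal proteins 4 were higher and 0 lower (19.0% and 0%, close to the background for higher), 19 lay above 1, and the median was 1.40. The higher ones were P0, of the stalk that recruits translation factors (2.26 ± 0.305, RLA0_HUMAN), L22 (2.07 ± 0.474, RL22_HUMAN), S2 (1.56 ± 0.225, RS2_HUMAN) and L11, which also binds the p53 regulator MDM2 (1.53 ± 0.141, RL11_MOUSE). The ribosomal proteins with the most lines were L10, L18a, L4 and L30. L10, which joins the large subunit late in its assembly, stood at 1.72 ± 0.536 with 144 lines, coded ones included (RL10_HUMAN). The L10 lines with a ratio ran from 0.161 to 81.6, and the large error of L10 kept it from passing. L18a stood at 1.49 ± 0.151 (RL1X_HUMAN, 38 lines), L4 at 1.21 ± 0.138 (RL4_MOUSE, 28 lines) and L30 at 1.39 ± 0.105 (RL30_HUMAN, 19 lines). The lowest was S11 at 0.75 ± 0.067 (RS11_HUMAN, 2 peptides), lower relative to the median only.

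Translation factors had 1 higher and 1 lower entry of 7. Elongation factor 1-delta, which reloads factor 1-alpha with GTP, was higher at 1.57 ± 0.134 (EF1D_MOUSE), and initiation factor 2 gamma, the GTP-binding subunit that carries the initiator transfer RNA, was lower at 0.617 ± 0.086 on 3 lines between 0.483 and 0.647 (IF2G_HUMAN). Elongation factor 1-alpha stood at 1.40 ± 0.264 over 43 lines, coded ones included (EF11_HUMAN). Its peptides of 18 and 28 residues had 5 and 15 lines with a ratio, from 0.514 to 3.17. The other entry of elongation factor 1-alpha stood at 0.664 ± 0.237 over 4 lines and did not pass. Elongation factor 2 had a log2 ratio of 0.32 and an SD of 0.111 in the ratio (EF2_HUMAN). One peptide of elongation factor 2 gave a median of 0.116 over 3 lines, while its other 5 peptides lay between 0.98 and 1.88.

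**Figure D2:**
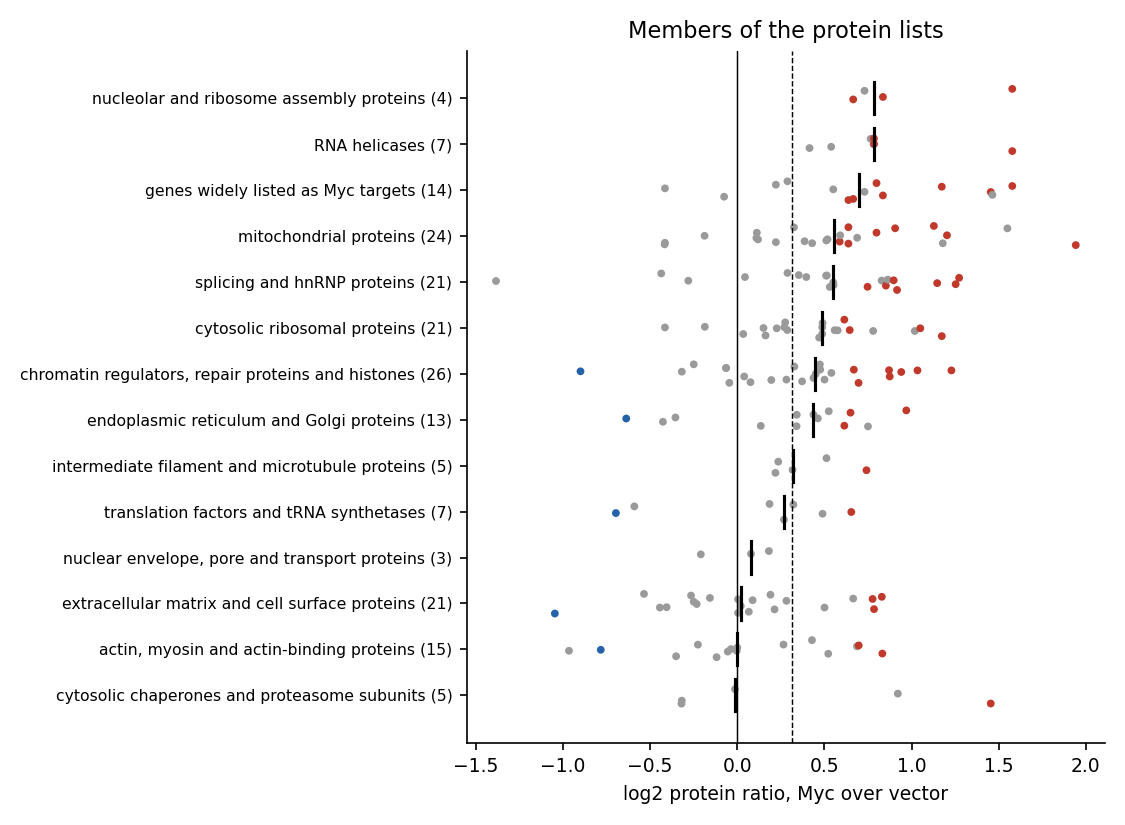
Log2 protein ratio of Myc over vector (horizontal axis) of each quantified member of the protein lists with at least 3 members (rows, with the number of entries), red where the entry was higher, blue where lower, with a black bar at each list's median. The solid line is a ratio of 1 and the dashed line the fraction median, and the medians of the actin, matrix, lamina and chaperone lists lie near the solid line while those of the nucleolar and helicase lists lie to the right of the dashed one.

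The mitochondrial proteins in the pellet had 8 higher and 0 lower entries of 24 (33.3% and 0%), at a median of 1.47, with 4 higher and 2 lower relative to the median. The group thus had about the same median as the splicing proteins. The porins VDAC1, VDAC2 and VDAC3, which let metabolites through the outer membrane, made up 4 of the 8. VDAC1 stood at 1.56 ± 0.097 (POR1_MOUSE, 27 lines between 1.15 and 2.24), with its other entry at 1.17 ± 1.61 on 1 line (POR1_HUMAN), and VDAC3 at 1.56 ± 0.082 (POR3_HUMAN, 60 lines). VDAC2 stood at 1.503 ± 0.223 by one entry (POR2_HUMAN) and at 3.84 ± 0.98 by the other (POR2_MOUSE, 26 lines). Of the POR2_MOUSE lines 16 had a ratio, from 0.444 to 25.9. These 2 entries of 1 protein lay 2.56-fold and 3.18 combined errors apart.

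Subunits of the respiratory chain varied within a complex. In complex I, which oxidises NADH, the 51 kDa subunit that binds the flavin was higher at 1.87 ± 0.139 over 23 lines (NUBM_HUMAN), the mitochondrially encoded ND3 was higher at 2.30 ± 0.156 on 1 line with a probability of 0.543 (NU3M_MOUSE), and the 75 kDa subunit stood at 0.878 ± 0.032 on 2 lines (NUAM_HUMAN). In complex III, which passes electrons to cytochrome c, the hinge protein was higher at 2.19 ± 0.432 over 31 lines (UCRH_MOUSE) and did not pass at 1.43 ± 0.238 over 2 lines of its other entry (UCRH_HUMAN). Cytochrome c1 stood at 1.51 ± 0.385 (CY1_MOUSE) and core protein 2 at 1.61 ± 0.856 and 1.43 ± 0.669. Only the 51 kDa subunit, ND3, the UCRH_MOUSE entry of the hinge protein and the POR2_MOUSE entry of VDAC2 were also higher relative to the median.

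Enzymes and chaperones of the matrix gave other values. Mitochondrial serine hydroxymethyltransferase, which feeds the folate cycle, was higher at 1.74 ± 0.474 over 6 lines (GLYM_HUMAN). Pyrroline-5-carboxylate synthase and reductase, the enzymes that make proline, gave 1.35 ± 0.11 (P5CS_HUMAN) and 2.27 ± 1.38 (PROC_HUMAN). The chaperonin Hsp60 stood at 0.75 ± 0.189 over 18 lines (CH60_HUMAN), lower relative to the median as was mitochondrial ribosomal protein L19 (0.749 ± 0.012, 1 line, RM19_MOUSE). Glutamate dehydrogenase stood at 1.08 ± 0.213 over 9 lines (DHE3_HUMAN). Pyruvate dehydrogenase kinase 3, which switches off entry of pyruvate into the citrate cycle and is outside the list by its symbol, was higher at 2.07 ± 0.218 on 1 line (PDK3_HUMAN).

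Actin, myosin and actin-binding proteins had 2 higher and 1 lower entry of 15 (13.3% and 6.67%), at a median of 0.998, and only 5 lay above the fraction median. Relative to the median 0 were higher and 1 was lower. Non-muscle myosin heavy chains A and B stood at 0.784 ± 0.221 (MYH9_HUMAN) and 1.44 ± 0.133 (MYHA_HUMAN, 16 lines), the nucleators of branched actin Arp2 and Arp3 at 0.975 ± 0.327 and 0.921 ± 0.499, and coronin 1C at 0.855 ± 0.21. The lowest was EPLIN, which bundles actin filaments, at 0.512 ± 0.306 (EPLI_HUMAN, 2 lines), which did not pass. Both higher entries were of beta-actin (1.62 ± 0.182 and 1.78 ± 0.307), whose peptides ran from 0.488 to 2.01, and the lower entry was of gamma-actin (0.581 ± 0.06). The actins are near-identical and share peptides, so these entries may split the same molecules.

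Intermediate filament and microtubule proteins had 1 higher and 0 lower entries of 5, at a median of 1.246. Vimentin, the intermediate filament of fibroblasts, stood at 1.16 ± 0.118 over 38 lines (VIME_HUMAN), and plectin, which links it to actin, at 1.18 ± 0.697 with 6 peptides between 0.389 and 5.19 (PLE1_HUMAN). Tubulin alpha-2 was higher at 1.67 ± 0.334 (TBA2_HUMAN), and beta-2 and beta-3 stood at 1.43 ± 0.331 and 1.246 ± 0.202, and 0 of these 3 passed relative to the median. The cysteine-rich LIM protein 2, found at actin filaments and in the nucleus, stood at 0.954 ± 0.104 over 49 lines (CSR2_HUMAN).

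Matrix and surface proteins had 3 higher and 1 lower entry of 21 (14.3% and 4.76%), at a median of 1.01, and 5 lay above the fraction median. Relative to the median 0 were higher and 2 were lower. Perlecan, a heparan sulfate proteoglycan of basement membranes, had 69 lines and 11 deposited peptides and stood at 1.00 ± 0.096 (PGBM_HUMAN), and its mouse entry at 0.832 ± 0.134 (PGBM_MOUSE). Laminin chains stood at 0.851 ± 0.101 and 0.755 ± 0.249 for beta-1 and 1.42 ± 0.125 for alpha-5, and fibrillar collagens at 1.05 ± 0.085 for alpha-1(I), 1.00 ± 0.122 and 1.59 ± 1.05 for alpha-2(I), 1.14 ± 0.308 for alpha-1(III) and 0.841 ± 0.063 for alpha-1(XI). Fibronectin, which cells bind through integrins, was the lower entry at 0.484 ± 0.163, with 4 peptides between 0.319 and 0.74 (FINC_HUMAN), and its mouse entry stood at 0.897 ± 0.106 over peptide lines from 0.527 to 1.005 (FINC_MOUSE). Thrombospondin 1 (0.69 ± 0.071, 1 line) was lower relative to the median only.

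The 3 higher members of that list were integrin alpha-V (1.78 ± 0.227, ITAV_HUMAN), nidogen 2 (1.72 ± 0.161, NID2_HUMAN) and beta-catenin (1.71 ± 0.305, CTNB_HUMAN), each on 1 line, and 0 of them passed relative to the median. Beta-catenin, a junction protein that also acts in Wnt signalling, came into the list through the catenin symbol. Integrin beta-1, the partner of alpha-V and of many other alpha chains, stood at 1.01 ± 0.284 over 7 lines (ITB1_MOUSE). Lysyl oxidase, which crosslinks collagen, stood at 0.735 ± 0.258 (LYOX_HUMAN).

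Proteins of the endoplasmic reticulum and Golgi had 3 higher and 1 lower entry of 13, at a median of 1.35, which includes SSRP1 because its symbol begins like those of translocon subunits. With only entries of at least 2 peptides (6 of them) the median was 0.09 on the log2 scale, below the 0.31 of the fraction. Calreticulin, a calcium-binding chaperone of the lumen, was higher at 1.57 ± 0.148 (CRTC_HUMAN), as were the beta subunit of the signal recognition particle receptor (1.53 ± 0.202, SRPB_MOUSE, which did not pass with the median of its lines, 1.18) and p24B on 1 line with a probability of 0.632 (1.96 ± 0.06, P24B_HUMAN). The collagen-modifying prolyl 4-hydroxylase alpha-1 stood at 0.782 ± 0.097 over 12 lines (P4H1_MOUSE) and Golgi apparatus protein 1, outside the list by its symbol, at 0.762 ± 0.036 over 23 lines (GLG1_HUMAN), both lower relative to the median only. Ribosome-binding protein 1 of the rough reticulum gave 0.643 ± 0.068 with peptides of 14 residues (RRB1_HUMAN, lower) and 1.68 ± 0.554 with peptides of 19 and 26 residues (RRB1_MOUSE), 2.62-fold apart. With the median of its lines (0.741) RRB1_HUMAN was not lower. The sodium pump alpha-1 chain of the plasma membrane stood at 1.15 ± 0.232 over 31 lines (A1A1_HUMAN) and at 1.41 ± 0.246 over 13 lines by its other entry. The mannose 6-phosphate receptor, which sorts lysosomal enzymes, stood at 1.80 ± 0.686 (MPRI_MOUSE), while the median of its 10 lines was 0.926.

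The list of genes widely described as Myc targets, which was chosen with earlier results of these data known and overlaps the nucleolar, ribosomal and mitochondrial lists, had 7 higher and 0 lower entries of 14, at a median of 1.62. Relative to the median 3 were higher and 1 was lower. The 3 were the nucleolar helicase II, ribosomal protein P0 and the alpha subunit of the chaperonin TCP-1, which folds actin and tubulin (2.74 ± 0.411, TCP1_MOUSE, 2 lines). Other subunits of that chaperonin stood at 1.89 ± 2.15 (theta) and 0.991 ± 0.286 (eta), with delta coded. Phosphoglycerate dehydrogenase, which starts serine synthesis, stood at 2.76 ± 3.96, and PAICS, a purine synthesis enzyme, at 0.949 ± 0.037. Cytosolic chaperones as a list had 1 higher entry (TCP-1 alpha) and 0 lower of 5, at a median of 0.991, with the prolyl isomerase cyclophilin A lowest at 0.801 ± 0.208 (CYPH_MOUSE). Of glycolytic enzymes the table held 1 entry, pyruvate kinase, at 1.26 ± 0.046 on 1 line (KPY1_HUMAN). An entry for Myc itself was not among those read.

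At the ends of the ranking most entries rested on 1 line. The highest ratios were those of the 52 kDa repressor of the inhibitor of protein kinase (6.52 ± 1.17, P52K_HUMAN, a peptide of 9 residues) and of the 50 kDa subunit of the cleavage stimulation factor, which acts in 3′ end processing of messenger RNA (5.36 ± 0.359, CST1_HUMAN). Among the lowest with a name were a basic helix-loop-helix repressor (0.146 ± 0.012, BHB3_HUMAN, probability 0.817), desmocollin 1, a desmosome protein (0.179 ± 0.076, DSC1_HUMAN, probability 0.549), and SEL1L, of degradation from the endoplasmic reticulum (0.381 ± 0.008, SE1L_HUMAN, probability 0.791). Calls were more frequent where identification was weaker, at 42.1% of the 57 entries whose best probability was under 0.9 against 25.1% of the other 307. Among entries with at least 2 peptides, 21 of 104 were higher and 4 lower. The 4 were gamma-actin, fibronectin, ribosome-binding protein 1 and an entry without a name.

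Ratios moved with the length of the peptide they were read from. Over 546 distinct peptides with a ratio, the median was 1.04 at 6 to 10 residues, 1.04 at 11 to 13, 1.18 at 14 to 16, 1.26 at 17 to 20, 1.31 at 21 to 25 and 1.62 at 26 to 34. Spearman's rho of length and log2 ratio was 0.29 in this fraction, 0.15 in the soluble (776 peptides) and 0.17 in the mitochondrial one (296), given as descriptions over peptides that share a mixture. Of the entries with peptides of 6 to 10 residues 9.76% were higher, and of those with 26 to 34 residues 32.5%. Set against the median of entries of the same length class, 28 entries were higher (7.69%) and 50 lower (13.7%). Of the 74 higher entries 28 passed in this way and all 27 lower ones did. The median of every class lay above 1, so the lower entries could only stay lower.

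Some peptides were read at more than 1 length. In 111 pairs one peptide lay wholly inside another, and the longer one had the higher ratio in 71 and the lower in 40, with a median of 1.19-fold. These pairs came from 59 entries, and many share a peptide, as in vimentin and hnRNP U, so they are not independent. In the 44 pairs that differed by at least 5 residues the longer was higher in 30. For beta-actin the 6-residue peptide gave 0.488 and the 28-residue peptide that contains it gave 1.70. For filamin A, an actin crosslinker, a 16-residue peptide gave 0.508 and the 25-residue one that contains it 3.96, each on 3 lines. The lines of the longer one ran from 1.07 to 6.48, and the filamin A entries stood at 0.963 ± 0.182 (ABP2_HUMAN) and 1.61 ± 0.394. The largest shift of all pairs went the other way, in elongation factor 2. There a 12-residue peptide gave 0.98 over 5 lines and the 13-residue one that contains it 0.116 over 3. For vimentin a 16-residue peptide gave 0.937, and peptides of 21 and 22 residues around it gave 0.804 and 1.47, and for VDAC3 peptides of 19 and 27 residues gave 1.62 and 1.65. The part of peptide length in the calls above was not tested beyond these values.

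**Figure D3:**
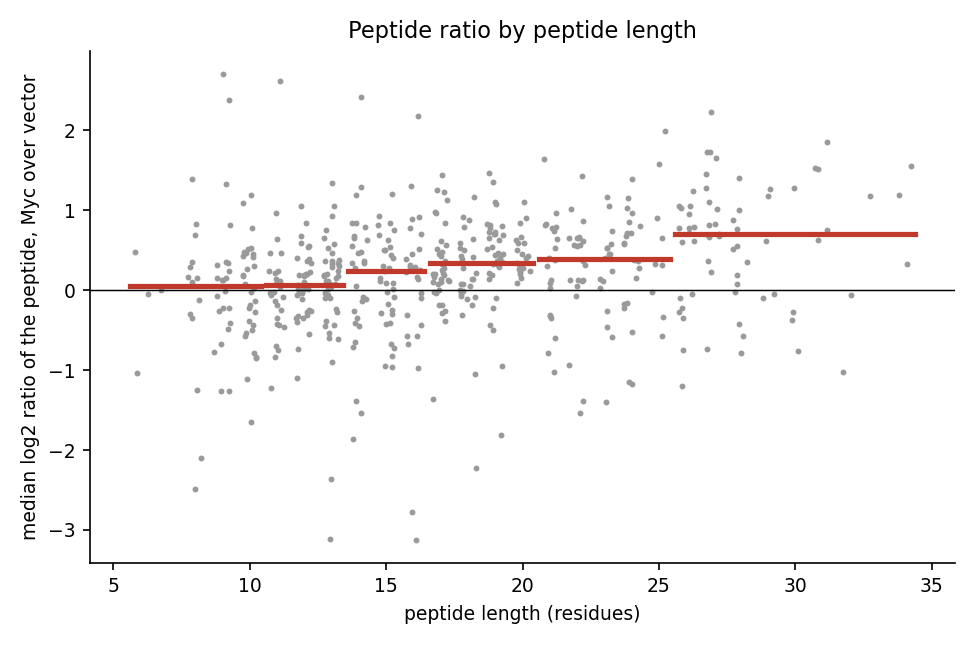
Median log2 ratio of Myc over vector of each of the 546 distinct peptides (grey points, vertical axis) against its length in residues (horizontal axis, points shifted slightly sideways), with red bars at the median of each length class. The bars step from about 0 for the shortest peptides to 0.70 for the longest, and the points of each class spread over more than 2 units.

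Group medians were also set against the median of the length class. On the log2 scale and relative to the class, splicing proteins stood at 0.29, nucleolar proteins at 0.46, RNA helicases at 0.33, mitochondrial proteins at 0.20, ribosomal proteins at 0.11 and chromatin proteins at 0.07. Lamina and pore proteins stood at -0.10, actin and myosin at -0.21 and matrix and surface proteins at -0.24. For the helicases this was smaller than the 0.47 relative to the fraction median, and for the splicing proteins larger than 0.24. Of the chromatin proteins RBBP7 and HMG1 were higher in this reading, and of the mitochondrial ones VDAC2 by its POR2_MOUSE entry, ND3 and the hinge protein of complex III by its UCRH_MOUSE entry.

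Peptides of 1 entry often differed in ratio. In the 87 entries with at least 2 distinct peptides the median range between them was 0.62 on the log2 scale, 44 entries spanned at least 1.5-fold and 39 had peptides on both sides of 1. For repeated readings of 1 peptide the SD of the log2 ratio was 0.36, the median of 210 peptides with at least 3 values. Wide ranges of peptide medians were seen for filamin A (0.508 to 2.53 over 11 peptides of its main entry) and hnRNP U (1.05 to 6.12 over 9). Line medians fell on the other side of 1 from the protein ratio for several entries, among them plectin (0.624) and histone H3 by its H32_BOVIN entry (1.36). On the log2 scale lamin A/C went from -0.209 to 0.136, cyclophilin A from -0.320 to 0.076 and filamin A by ABP2_HUMAN from -0.054 to 0.143. Vimentin went from 0.219 to -0.065 and core protein 2 by UCR2_MOUSE from 0.518 to -0.160. None of these entries passed. Narrower ranges were seen for L18a (1.09 to 1.74 over 6) and VDAC3 (1.55 to 1.73 over 4).

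**Figure D4:**
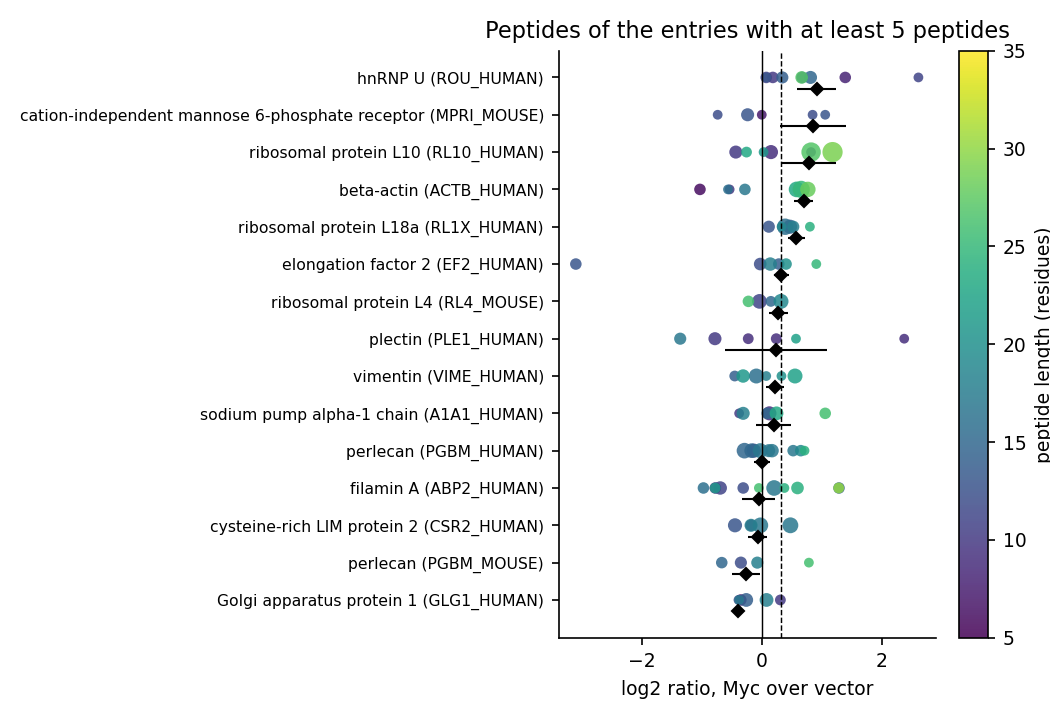
Median log2 ratio of Myc over vector (horizontal axis) of each peptide of the 15 entries with at least 5 deposited peptides (rows), coloured by peptide length and sized by the number of lines, with the deposited protein ratio and 1 deposited error as a black diamond and bar. Long peptides of beta-actin and L10 lie to the right of short ones, and 1 peptide of elongation factor 2 lies far to the left of the rest.

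Among genes with 2 quantified entries there were 17 pairs, and in 2 of them, VDAC2 and ribosome-binding protein 1, the entries lay both 1.5-fold or further and over 2 combined errors apart. The entry with the longer median peptide had the higher ratio in 13 of the 17. Pairs that did not differ by the rule still lay apart, such as fibronectin (1.85-fold, 1.73 errors), filamin A (1.67-fold, 1.66 errors) and elongation factor 1-alpha (2.11-fold, 1.86 errors).

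A second readout of the same mixture is which tagged form of a peptide the spectra identified. Of all 2386 lines 45.9% were of the heavy, Myc form (exact Clopper-Pearson 95% interval 43.9 to 47.9%, which covers counting error only since lines of a protein are not independent). The share was 52.7% (48.4 to 56.9%) over the 547 lines of higher entries, 44.3% (42.0 to 46.7%) over entries that did not pass, and 24.3% (15.1 to 35.7%) over the 74 lines of lower entries. It was 52.4% (44.6 to 60.1%) for chromatin proteins, 51.8% (43.96 to 59.5%) for splicing proteins, 54.1% (48.3 to 59.8%) for ribosomal proteins and 51.5% (45.3 to 57.6%) for mitochondrial proteins. It was 34.0% (27.4 to 41.2%) for actin and myosin proteins and 32.6% (25.8 to 40.0%) for matrix and surface proteins. It was 28.4% (18.9 to 39.5%) for endoplasmic reticulum and Golgi proteins, whose median ratio was 1.35 over all entries of the list and lower with at least 2 peptides, as given above. Filamin A had 4 heavy of 47 lines in its main entry, and VDAC2 had 18 of 26 in the entry at 3.84. The lamina, with ratios near 1, had a share of 53.8% (42.2 to 65.2%). The heavy share also differed by peptide length. It was 35.3% of lines at 6 to 10 residues, 44.3 to 46.1% in the classes between and 53.8% at 26 to 34. The part of length in the shares above was not tested. This readout comes from the same spectra and is no replicate.

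**Figure D5:**
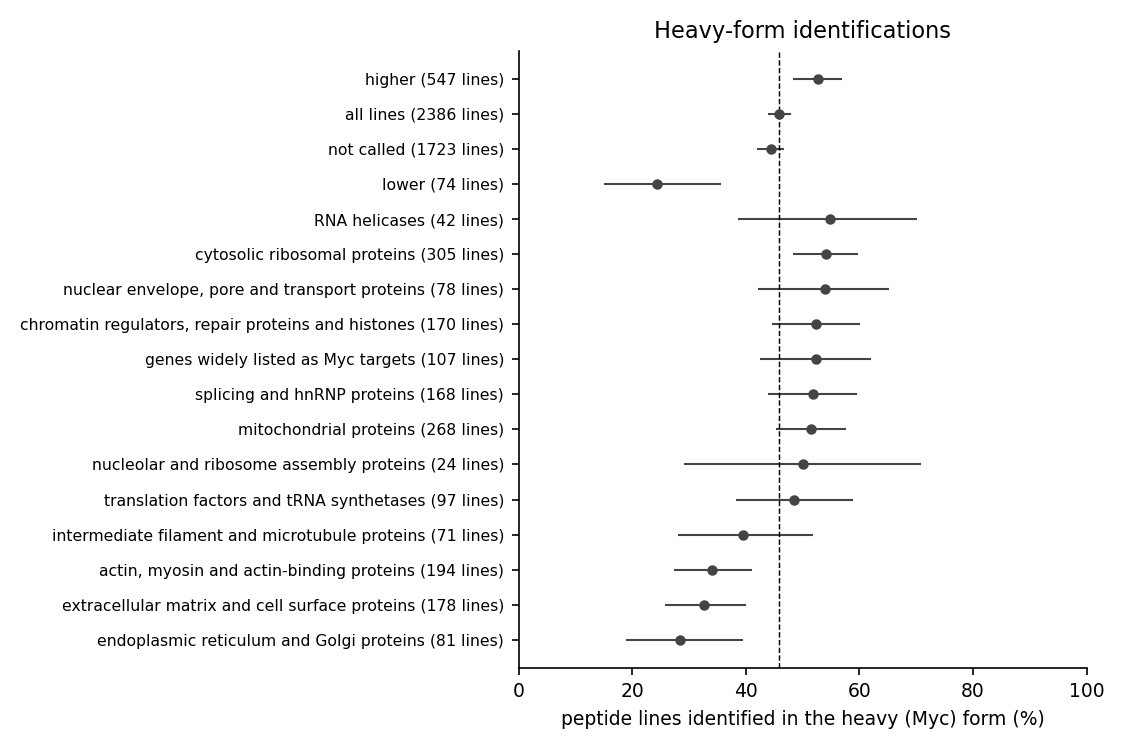
Percentage of peptide lines identified in the heavy (Myc) form (horizontal axis) for entries by call and for each protein list with at least 20 lines (rows), with exact 95% binomial intervals of counting error and a dashed line at the share over all lines. Lower entries and the endoplasmic reticulum, matrix and actin lists lie left of the dashed line with intervals that do not reach it, and higher entries lie right of it.

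Of the 36 entries with a coded protein ratio, 10 were coded 0, 10 were coded -1 and 16 carried the large placeholder of the legend, and 11 of the 36 have a name. Those with a name and a peptide probability of at least 0.9 were HP1-gamma, laminin gamma-1, coronin 1B and the transcription factor COE1 (coded 0), the U5 helicase that unwinds the U4 and U6 RNAs (U520_HUMAN), the TCP-1 delta subunit, the CD166 antigen and the gamma form of the PI3-kinase catalytic subunit (the large placeholder), and ribosomal protein L44, the amino acid transporter SLC1A4 and mitochondrial ribosomal protein S29 (coded -1). For laminin gamma-1 a peptide line carried a ratio of 0.929 although the protein was coded. No direction was read from the codes.

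Of the 364 entries, 95 also had a ratio in the soluble fraction under the same entry name and 24 in the mitochondrial one. Of the 95, 8 were called in the same direction in both and 1 in opposite directions, and of the 24 the counts were 1 and 0. Values side by side include HMG1 at 1.92 ± 0.337 here and 2.51 ± 1.09 in the soluble fraction, L22 at 2.07 ± 0.474 and 1.74 ± 0.406, hnRNP F at 1.68 ± 0.161 and 1.59 ± 0.222, and VDAC1 at 1.56 ± 0.097 here and 1.96 ± 0.495 in the mitochondrial fraction. Hsp60 stood at 0.75 ± 0.189 here (peptide medians from 0.612 to 1.48) and 2.57 ± 0.308 in the soluble fraction. Its mouse entry stood at 2.60 ± 0.179 there and at 1.88 ± 0.78 in the mitochondrial fraction. NONO stood at 0.823 ± 0.207 here (peptide medians 1.38 and 1.06) and 2.40 ± 0.891 in the soluble fraction. Hsc70 stood at 0.802 ± 0.078 here, and at 2.86 ± 0.81 (human entry) and 1.17 ± 0.263 (mouse entry) in the soluble fraction. In the mitochondrial fraction Hsc70 stood at 0.717 ± 0.157. With 1 mixture for each fraction these differences were not tested.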

How the data were processed

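The deposited table holds 1 line per identified peptide, with a PeptideProphet probability (a score; the lowest was 0.502) and the linear ratio of Myc over vector with its SD for peptide and protein, made by the authors with ASAPRatio, per the file headers and per the labels. Spectra were searched by the authors against a rat, mouse and human database, per the labels. Tool versions and centring are not given in the sources used here. The deposited codes for undetected peaks (0, -1 and a large placeholder) were left out as ratios.

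The protein ratio, SD and peptide number were read once per entry. Names are a reading of entry names (244 entries) or of a shared peptide (5), since no protein sequences were used here, and 226 of 227 gene symbols occur in the rat gene table. No test and no p-value was possible with 1 mixture. The code of the call rule was run on simulated ratios whose scatter equalled the error given to the rule, which does not test the calls made here. Members, lists and tests were chosen with earlier results of these data known. The text names, in each of 16 lists, the highest, lowest and called entries, the 15 highest and 15 lowest called entries with probability of at least 0.9 where they have a name (14 were lower), entries with at least 5 peptides, coded entries and pairs of entries of 1 protein. Other members are examples chosen after their values were seen. Alternatives changed the fold, error rule, peptide number, probability, summary, merging of entries and, after the data were seen, centring by peptide length. Tables were read in Python (3.11.15) through pandas (version 2.3.3) and computed with numpy (version 2.4.6), exact intervals came from scipy (version 1.17.1), and figures from matplotlib (version 3.10.9).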

Additional observations from a re-analysis of the deposited data

Results flagged for a closer look

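Among entries measured in more than 1 fraction, 2 proteins were lower in the chromatin-enriched fraction and higher in another. Initiation factor 2 gamma (IF2G_HUMAN) stood at 0.617 ± 0.086 here, on 1 peptide of 18 residues, and at 1.74 ± 0.3 in the soluble fraction, on 1 peptide of 25 residues. Ribosome-binding protein 1 stood at 0.643 ± 0.068 here by one entry (RRB1_HUMAN, 2 peptides with a median of 14 residues) and at 1.82 ± 0.43 in the mitochondrial fraction by an entry with 1 peptide of 19 residues. Its other entry in the chromatin-enriched fraction (RRB1_MOUSE) stood at 1.68 ± 0.554, and RRB1_HUMAN was not lower with the median of its lines (0.741). In both the peptide of the other fraction was the longer one. Each fraction is 1 mixture, so the differences were not tested.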

How the results depend on the processing

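With a fold of at least 2, 26 entries were higher and 13 lower as deposited, and 11 and 25 relative to the median. With the smaller fold limit tried, 120 were higher and 42 lower as deposited, and 60 were higher relative to the median. Among the 104 entries with at least 2 peptides 21 were higher and 4 lower, and 5 and 13 relative to the median. Among the 307 with a probability of at least 0.9, 14 were lower, and 31 relative to the median. These counts follow from fewer entries or another limit. Dropping the error rule, asking for 3 errors, medians of the peptide lines, and merging entries of 1 gene left each of the 4 counts within 1.5 times its value, and centring by peptide length did so for the 2 counts relative to the median. The higher share of calls was 74 of 101 as deposited and 34 of 82 relative to the median. Of 67 recomputed list medians 2 moved by more than the median error of the list's own members, that of the endoplasmic reticulum and Golgi list with at least 2 peptides (log2 0.09) and that of the RNA helicases with line medians (0.54). The median of the 5 cytosolic chaperones, whose errors are wider, went from -0.01 to 0.31 with line medians. Of the entries that met the naming rule and had a ratio, with or without a protein name, 4 lost their call with line medians (hnRNP U, RNA helicase p72, the beta subunit of the signal recognition particle receptor and RRB1_HUMAN), and with centring by length 29 lost and 4 gained one. The cause was not tested. The number of peptides limits precision, and 71.4% of ratios rest on 1. No paired analysis was possible because the fraction is 1 mixture with no replicate numbers.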

Other observations

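Signalling proteins at membranes were also in the pellet. G protein beta-1, which carries signals from receptors with the gamma subunit, stood at 1.35 ± 0.113, beta-2 at 0.858 ± 0.184 and the inhibitory alpha-i2 subunit at 0.868 ± 0.219. The small GTPases RhoA, which controls actin, and Rap1B stood at 1.27 ± 0.114 and 1.33 ± 0.134, and Rap1A at 0.785 ± 0.306. The lipid raft proteins flotillin 1 and 2 stood at 0.935 ± 0.044 and 1.09 ± 0.086, and the prion protein, a surface glycoprotein, at 1.01 ± 0.068. The adaptor SHC stood at 0.675 ± 0.033 on 1 peptide, lower relative to the median. The spindle checkpoint protein BUB3 was higher at 1.62 ± 0.313 with 3 of 3 lines in the heavy form, though not relative to the median.

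Entries without a name made up 151 of the 400, and 126 of them had a ratio. Of these 24 were higher and 14 lower, at a median of 1.19, against 50 higher and 13 lower of the 238 with a name.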
